A study of Mus musculus with 4 samples.

Results

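A set of 4 small nuclear RNA genes of the spliceosome was examined in small RNA libraries from mouse sperm: Rnu1a1 and Rnu1b1, which encode U1 RNA, Rnu2-10, which encodes U2 RNA, and Rnu5g, which encodes U5 RNA. They were selected by name among the RefSeq features of the deposited tables, where each is represented by 1 transcript, and they are 4 of the 16785 genes to which the RefSeq features were assigned. The sperm came from the cauda epididymis of adult C57BL/6 mice of an original cross (2 mice) and of an extra cross to wildtype (2 mice), with 1 library per mouse. The study's title gives the question as the small RNA content of sperm in which a LoxP site, the short target of Cre recombinase, can or cannot be silenced. The labels used here name neither the alleles nor the transgenes of either cross, nor which cross was susceptible.

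Spliceosomal small nuclear RNAs are short, abundant, uridine-rich RNAs that work inside protein particles. U1 pairs with the start of an intron at the 5′ splice site, U2 pairs with the branch point, and U5 holds the exon ends together through its loop 1 while the exons are joined. Each RNA binds a ring of Sm proteins at a uridine-rich Sm site. Transcription stops when the spermatid nucleus is compacted, and mature sperm makes no new RNA. The mouse has 2 kinds of U1 RNA: U1a is made at all stages, and U1b is known mainly from embryonic and some adult tissues, the testis among them.

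The U1 and U2 sequences are shown because their likeness decides which reads can be told apart. They are GENCODE M21 transcript sequences on GRCm38, written as DNA from 5′ to 3′. Capitals mark the stretch that pairs with the 5′ splice site in the U1 RNAs (ACTTACCTG), the stretch that pairs with the branch point in U2 (GTAGTA), and in each RNA the Sm site, searched as ATTTNTG.
Rnu1a1: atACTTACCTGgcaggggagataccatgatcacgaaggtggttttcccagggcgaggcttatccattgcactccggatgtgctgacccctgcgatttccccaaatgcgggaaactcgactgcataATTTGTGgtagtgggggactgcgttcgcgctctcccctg
Rnu1b1: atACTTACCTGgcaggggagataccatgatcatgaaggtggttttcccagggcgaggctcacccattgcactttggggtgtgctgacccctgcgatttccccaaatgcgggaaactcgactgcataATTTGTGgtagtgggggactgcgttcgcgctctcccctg
Rnu2-10: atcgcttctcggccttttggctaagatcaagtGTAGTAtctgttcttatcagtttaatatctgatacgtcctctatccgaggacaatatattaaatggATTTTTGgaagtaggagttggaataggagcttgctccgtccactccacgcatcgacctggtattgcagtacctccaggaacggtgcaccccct

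Rnu1a1 lies at chr11:87422867-87423030 on the plus strand, inside the gene Tex14 on the same strand but in none of its exons. Rnu1b1 lies at chr3:96359953-96360117 on the minus strand and overlaps no other annotated gene. Rnu2-10 lies at chr11:101658238-101658428 on the plus strand, also clear of other genes, and its GENCODE transcript is 191 bases long against 187 in the RefSeq gene table. Searched on the RNA strand only, the 5′ splice site stretch occurs in 3.98% of the 1383 GENCODE small nuclear RNA transcripts, the U2 stretch in 3.69% and ATTTNTG in 20.5%.

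The U1 genes are close copies. Rnu1a1 and Rnu1b1 are identical at 158 of 165 aligned positions (95.8%). Counted from the 5′ end of Rnu1a1, the substitutions towards Rnu1b1 are C33T, T60C, T62C, C73T, C74G and A77G, beside 1 inserted base, so the splice site stretch and the Sm site are the same in both. A further gene, Rnu1b2, has the same sequence as Rnu1b1, and Rnu1b6 differs from Rnu1b1 by T33C, T157G and 1 inserted base. Of the 140 windows of 25 bases in Rnu1a1, 98 (70%) also occur in another of these U1 genes, and all 141 windows of Rnu1b1 do. No window of Rnu1a1, Rnu1b1 or Rnu2-10 was found in that gene alone among all GENCODE transcripts. Rnu1b1 and Rnu1b2 have the same deposited value in each library, so the level of Rnu1b1 is a divided one and the split between U1a and U1b is uncertain.

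Values are in RPM, the unit the authors give for reads set against the size of a library. The RPM scale rests on 632859 and 1782506 reads in original-cross replicates 1 and 2 and on 1557766 and 4205692 reads in extra-cross replicates 1 and 2. In original-cross replicate 1 the RefSeq values lie on a scale 26.2 times lower than the other classes, and they were multiplied by that ratio. Every RPM level of this library and every fold change of RPM that involves it depends on the ratio, while shares and ratios within a library do not. In fold changes under median-ratio scaling or scaled to the RefSeq sum the ratio largely cancels, because it also enters the scaling factor. The cell types were checked through lists of markers. None of the 10 sperm and spermatid markers reached a mean of 10 RPM, and their sums were 5.07 to 9.54 RPM. In original-cross replicate 1, where 1 read stands for 1.58 RPM, Prm1, Prm2, Tnp1 and Tnp2 were at 0. Odf1 was at 3.16 RPM there, and Hspa1l and Gapdhs were at 1.58 RPM. Tnp1 was also at 0 in original-cross replicate 2, and Tnp2 in extra-cross replicate 1. All 10 smooth muscle and stroma markers, led by collagens, were above 0 in all libraries and added up to 2849 and 3400 RPM in the original-cross mice against 1217 and 1452 RPM in the extra-cross mice. Acta2 (10.7 and 6.10 against 7.95 and 5.79 RPM) and Myh11 (4.74 and 10.3 against 3.14 and 8.06 RPM), both of smooth muscle, overlapped between the crosses. Tagln and Des were lower in the extra cross without overlap, as were 54.1% of all tested RefSeq genes. The 10 epididymal epithelium markers summed to 46.4 and 145 against 155 and 162 RPM, with Lcn8 and Cst8 at 0 in original-cross replicate 1. Within replicate 2, Lcn5 (23.0 against 55.9 RPM), Rnase9, Crisp1 and Adam7 were higher in the extra cross. Lcn8, Lcn9, Defb20, Spint4, Cst8 and Cst11 were lower there. The 9 blood markers summed to 109 and 50.5 against 69.1 and 43.4 RPM, of which Lyz2 alone had 94.0 and 41.1 against 60.0 and 30.7 RPM. Fewer cells of a type and less RNA per cell cannot be told apart in such libraries. The part of these other cells in the levels below was not tested.

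Among the 4 members, Rnu1a1 varied most between mice in RPM. It was at 310.2 and 156.9 RPM in original-cross replicates 1 and 2 and at 105.5 and 171.9 RPM in extra-cross replicates 1 and 2, which stand for about 196, 279.7, 164 and 723 reads. The highest and the lowest library are both of replicate 1, and the groups overlap. The mean was 234 ± 108 RPM (SD, n = 2) in the original cross and 139 ± 47.0 RPM (SD, n = 2) in the extra cross. The log2 fold change, extra minus original cross on the log2(RPM + 1) scale, was -0.71 ± 0.42 (SE), with a limma adjusted p of 0.312 and a 95% confidence interval from -1.67 to 0.25. It was -1.55 within replicate 1 and 0.13 within replicate 2, so the difference rests on the libraries of replicate 1. It was -0.18 under median-ratio scaling and -0.29 when the libraries were scaled to the same RefSeq sum. Without original-cross replicate 1 it was -0.22, and without original-cross replicate 2 it was -1.20 with a limma adjusted p of 0.0599.

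Rnu1b1, a gene for U1b, was at 106 and 45.0 RPM in the original-cross mice and at 68.4 and 69.7 RPM in the extra-cross mice, from about 67.1, 80.2, 107 and 292.9 reads. Both extra-cross libraries fell between the original-cross ones. The means were 75.5 ± 43.1 RPM (SD, n = 2) and 69.0 ± 0.864 RPM (SD, n = 2). The log2 fold change was -0.0026 ± 0.42 (SE), with a limma adjusted p of 0.995 and a 95% confidence interval from -0.96 to 0.95. Within the replicates it was -0.62 and 0.62, which cancel in the mean. It was 0.52 under median-ratio scaling and 0.42 when scaled to the RefSeq sum. An interval of this width leaves room for a change of close to 2-fold either way.

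Rnu2-10, the U2 gene, was the only member whose groups did not overlap. The original-cross mice had 115 and 81.3 RPM and the extra-cross mice 65.5 and 72.0 RPM, from about 73.0, 145, 102 and 302.7 reads. Both extra-cross libraries were below both original-cross libraries, with means of 68.7 ± 4.59 against 98.3 ± 24.0 RPM (SD, n = 2 each). The log2 fold change was -0.49 ± 0.34 (SE), with a limma adjusted p of 0.346 and a 95% confidence interval from -1.25 to 0.27, and -0.81 and -0.17 within the 2 replicates. The same order, with the extra cross lower and no overlap, was seen in 54.1% of all tested RefSeq genes, and groups apart in either direction, which 1 of 4 members had, in 58.5%. The log2 fold change was -0.07 when the libraries were scaled to the same RefSeq sum and 0.03 under median-ratio scaling.

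Rnu5g, the U5 gene, was the steadiest member in RPM. The original-cross mice had 178.6 and 189.4 RPM and the extra-cross mice 188.1 and 154.5 RPM, from about 113, 338, 293 and 649.7 reads. The highest level was 1.23 times the lowest, against 2.94 times for Rnu1a1, 2.35 times for Rnu1b1 and 1.76 times for Rnu2-10. The means were 184 ± 7.69 and 171 ± 23.8 RPM (SD, n = 2 each), and the groups overlap. The log2 fold change was -0.11 ± 0.32 (SE), with a limma adjusted p of 0.827 and a 95% confidence interval from -0.84 to 0.62, and 0.07 and -0.29 within the 2 replicates. The direction turned under median-ratio scaling, to 0.42, and when scaled to the RefSeq sum, to 0.31.

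**Figure D1:**
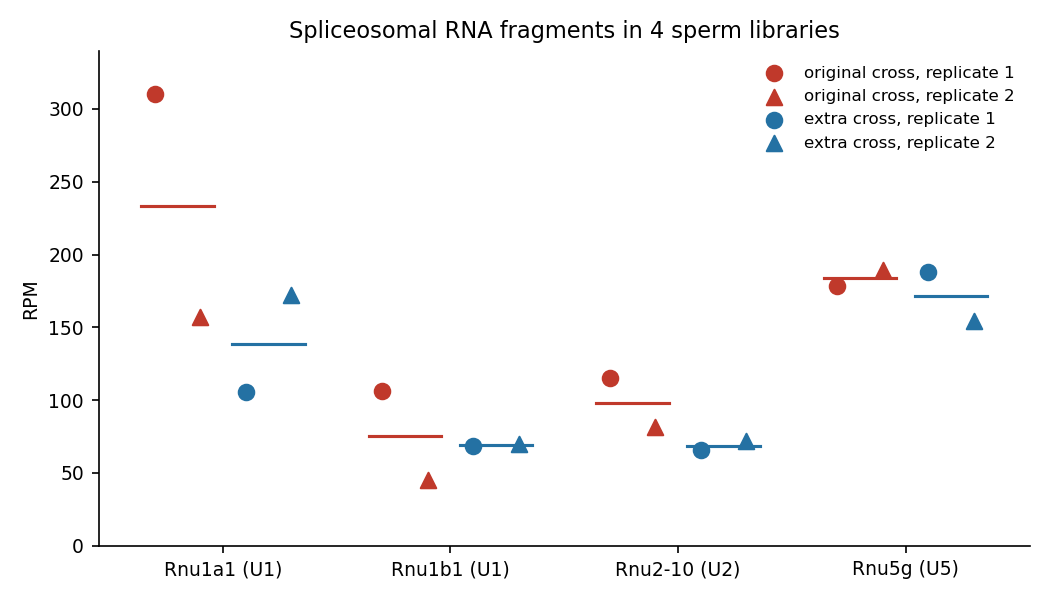
RPM (y axis) of the 4 genes (x axis) in each library, with red for the original cross, blue for the extra cross, circles for replicate 1, triangles for replicate 2 and lines for the mean of each cross. The 2 crosses overlap for Rnu1a1, Rnu1b1 and Rnu5g, and the circle of Rnu1a1 at 310.2 RPM stands above all other values.

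Levels per length were compared gene by gene, with the U1 reads divided among copies. Rnu5g had a mean of 153 RPM per 100 bases over the 4 libraries (range 133 to 163), followed by Rnu1a1 with 114 (64.3 to 189), Rnu1b1 with 43.8 (27.3 to 64.2) and Rnu2-10 with 43.7 (34.3 to 60.4). The ranges of Rnu5g and Rnu1a1 overlap, as do those of Rnu1b1 and Rnu2-10. Per length within a library, Rnu5g was above Rnu1a1 except in original-cross replicate 1. Rnu1b1 was above Rnu2-10 except in original-cross replicate 2, so neither order held in every library. Rnu1a1 and Rnu1b1 do not overlap, by a margin of less than 1 RPM per 100 bases. Within each library the RPM of Rnu1a1 was 1.54 to 3.49 times that of Rnu1b1. Together the U1 genes Rnu1a1, Rnu1b1, Rnu1b2 and Rnu1b6 came to 554.8 and 263.3 RPM in the original-cross mice and 253 and 334 RPM in the extra-cross mice. Rnu1a1 made up 55.9% and 59.6% of that sum in the original cross and 41.6% and 51.4% in the extra cross. Gm26232 had values near those of Rnu1b6, at 32.5 and 16.3 against 11.0 and 23.3 RPM, and was not counted. The sum and these shares thus depend on which genes are counted.

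As a share of all RefSeq reads, which does not depend on the rescaling, the 4 members together were nearly constant. They took 0.342% and 0.304% in the original cross and 0.325% and 0.344% in the extra cross. Rnu2-10 was steadiest on this scale, at 0.0555% and 0.0524% against 0.0497% and 0.0529%, and its highest share was 1.12 times its lowest. Rnu5g, the steadiest in RPM, ranged 1.66-fold as a share, from 0.0860% in original-cross replicate 1 to 0.143% in extra-cross replicate 1. Rnu1a1 ranged 1.87-fold, from 0.0801% in extra-cross replicate 1 to 0.149% in original-cross replicate 1. Rnu1b1 was at 0.0510%, 0.0519% and 0.0512% in original-cross replicate 1 and the 2 extra-cross libraries, and at 0.0290% in original-cross replicate 2 alone. Which member looks steadiest thus depends on the scale.

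The make-up of the 4-gene sum differed between mice of the same cross. Rnu1a1 was 43.7% of it in original-cross replicate 1, where it was the largest part, and 33.2% in original-cross replicate 2, where Rnu5g led with 40.1%. In the extra cross Rnu5g led with 44.0% in replicate 1, where Rnu1a1 was 24.7%, and Rnu1a1 led with 36.7% in replicate 2, where Rnu5g was 33.0%. Rnu2-10 was at 16.2% and 17.2% in the original cross and at 15.3% and 15.4% in the extra cross, without overlap. Among ratios of 2 tested RefSeq genes above 0 in every library, 41.1% had groups that did not overlap. No such rate was computed for shares of a 4-gene sum.

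**Figure D2:**
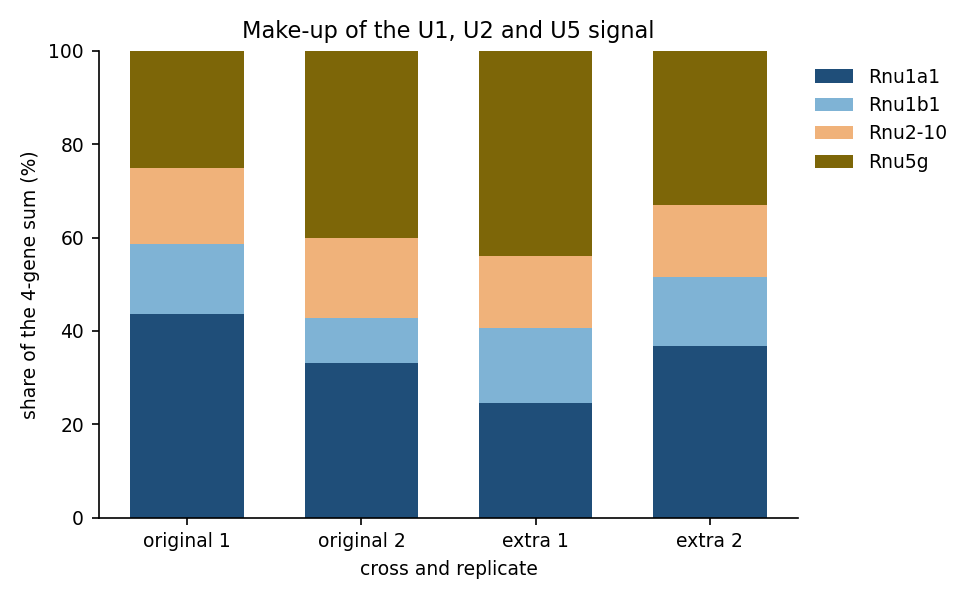
Share of each gene in the sum of the 4 genes (y axis, percent) in each library (x axis, cross and replicate), as stacked bars. The band of Rnu2-10 keeps nearly the same height in all libraries, between 15.3% and 17.2%, while those of Rnu1a1 and Rnu5g trade places within each cross.

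Ratios between members within a library need no scaling between libraries. Of the 6 ratios, 2 had groups that did not overlap, and among all pairs of tested RefSeq genes above 0 in every library 41.1% did. Rnu1a1 over Rnu1b1 was 2.93 and 3.49 in the original cross and 1.54 and 2.47 in the extra cross. Rnu1b1 over Rnu2-10 was 0.919 and 0.553 in the original cross and 1.05 and 0.968 in the extra cross. Both involve Rnu1b1, whose value is divided with its copies, and the gap between groups was less than the difference between replicates of one cross in each. With 2 mice per cross an exact two-sided permutation test cannot give a p below 0.333, so none was run. The ratio of Rnu1a1 to Rnu1b6, a U1b gene that shares base 33 with Rnu1a1, was 9.54 and 9.62 against 9.56 and 7.48 and overlapped between the crosses.

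**Figure D3:**
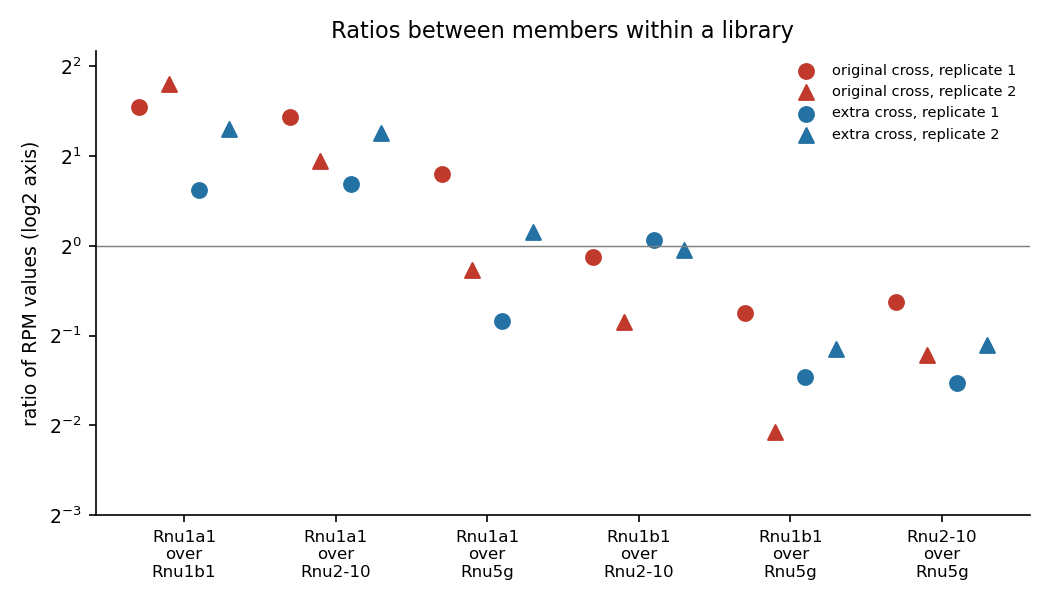
Ratio of the RPM values of 2 genes (y axis, log2 scale) for each of the 6 pairs (x axis), with colours for cross and shapes for replicate. Red and blue separate for Rnu1a1 over Rnu1b1 and for Rnu1b1 over Rnu2-10, and overlap in the other 4 pairs.

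Across the 477 RefSeq genes with a mean of at least 10 RPM, all 4 members were tested and 0 had a limma adjusted p below 0.05 (Benjamini-Hochberg), as did 0 of all genes (0%). At an unadjusted p below 0.05 the count was 0 of 4 members and 114 of all genes (23.9%). All 4 members had a log2 fold change below 0, and so did 83.6% of all genes. Under median-ratio scaling only Rnu1a1 was below 0, and scaled to the RefSeq sum Rnu1a1 and Rnu2-10 were. The members' median was -0.30 and that of all tested genes -0.50. For 3 of 4 members the sign differed between the 2 replicates, which was so for 19.3% of all genes. By mean RPM the members ranked 17th (Rnu1a1), 19th (Rnu5g), 36th (Rnu2-10) and 40th (Rnu1b1). The 3 other genes whose pattern over the 4 libraries was most like the members' mean, by Euclidean distance of centred log2 values, were Rbbp7 (0.083), Atp2b4 (0.100) and Dab2 (0.116), all high in original-cross replicate 1 and nearly level in the other libraries. Not every member had this pattern. Rnu5g was at 178.6 RPM in original-cross replicate 1, below its 189.4 RPM in original-cross replicate 2 and 188.1 RPM in extra-cross replicate 1. Rnu1a1 and Rnu1b1 were highest in original-cross replicate 1 but not level elsewhere. In original-cross replicate 2 and extra-cross replicates 1 and 2, Rnu1a1 had 156.9, 105.5 and 171.9 RPM and Rnu1b1 45.0, 68.4 and 69.7 RPM.

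**Figure D4:**
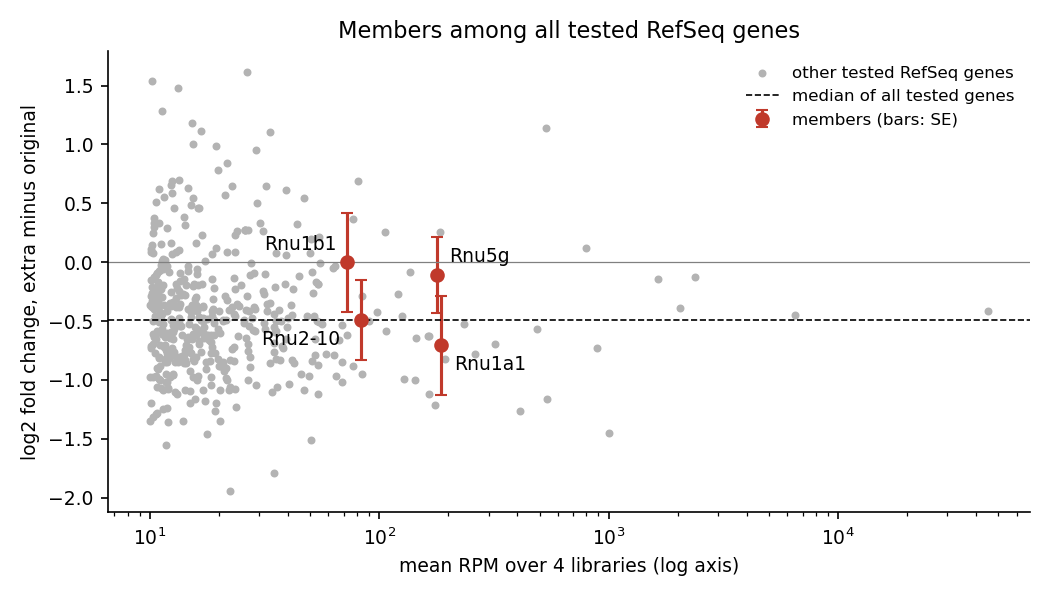
Log2 fold change, extra minus original cross (y axis), against mean RPM (x axis, log scale) for the 477 tested RefSeq genes in grey and the 4 members in red with SE bars. The members lie among the other genes of their level, on both sides of the dashed median of all genes at -0.50.

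Other RNAs of the splicing machinery were measured beside the members. Rnu6, which encodes U6, the RNA of the catalytic centre, was at 45.0 and 32.0 RPM in the original-cross mice and 37.5 and 41.9 RPM in the extra-cross mice, and its groups overlap. Its ratio to Rnu2-10 was 0.390 and 0.393 in the original cross and 0.572 and 0.583 in the extra cross, without overlap, a ratio picked after its values were seen and of the kind that 41.1% of all pairs gave. The minor spliceosome excises a rare class of introns. Its U12 gene Rnu12, the counterpart of U2, had 50.6 and 93.7 against 23.8 and 65.9 RPM, and was above Rnu2-10 and Rnu1b1 in original-cross replicate 2. Rnu11, the counterpart of U1, had 17.4 and 6.73 against 11.6 and 7.61 RPM. The histone pre-mRNA processing RNA Rnu7 stayed below the minimum, at 9.48 and 4.49 against 0.642 and 4.83 RPM. Rnu1b6 had 32.5 and 16.3 against 11.0 and 23.0 RPM, in the same order of libraries as Rnu1a1.

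Of the 23 other small RNAs listed, which also hold the U3, Y, vault, 7SK and 7SL RNAs and the RNA parts of the RNases MRP and P, 18 were tested, 10 had a log2 fold change below 0, and 0 passed. Their median was -0.04, against -0.50 for all tested genes. Near copies such as Rnu3b1 to Rnu3b4 hold nearly the same values, so these are not 18 independent features.

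Messages of the proteins that accompany these RNAs left few fragments. None of 8 U1 proteins, 14 U2 proteins, 8 Sm ring proteins and 13 assembly factors reached a mean of 10 RPM. Of 8 U5 proteins only Prpf8, the large scaffold of the catalytic centre, did, at 12.6 and 16.3 against 15.4 and 9.27 RPM, with a log2 fold change of -0.24 ± 0.37 (SE) and a limma adjusted p of 0.663. The U1 protein list came to 27.4 and 21.5 RPM in the original-cross mice and 8.04 and 15.6 RPM in the extra-cross mice, below Rnu1a1 in every library. The U2 protein list, at 30.4 and 22.2 against 22.6 and 18.6 RPM, overlapped between the crosses. In RPM the sums of the U1, U5, Sm ring and assembly lists were lower in the extra cross without overlap. Of single tested RefSeq genes 54.1% had that order. As a share of all RefSeq reads, the U5, Sm ring and assembly sums overlapped between the crosses. The U1 sum did not, at 0.0132% and 0.0138% against 0.00611% and 0.0115%. In original-cross replicate 1, where 1 read stands for 1.58 RPM, the Sm ring and assembly sums were only 11.1 and 9.28 RPM.

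**Figure D5:**
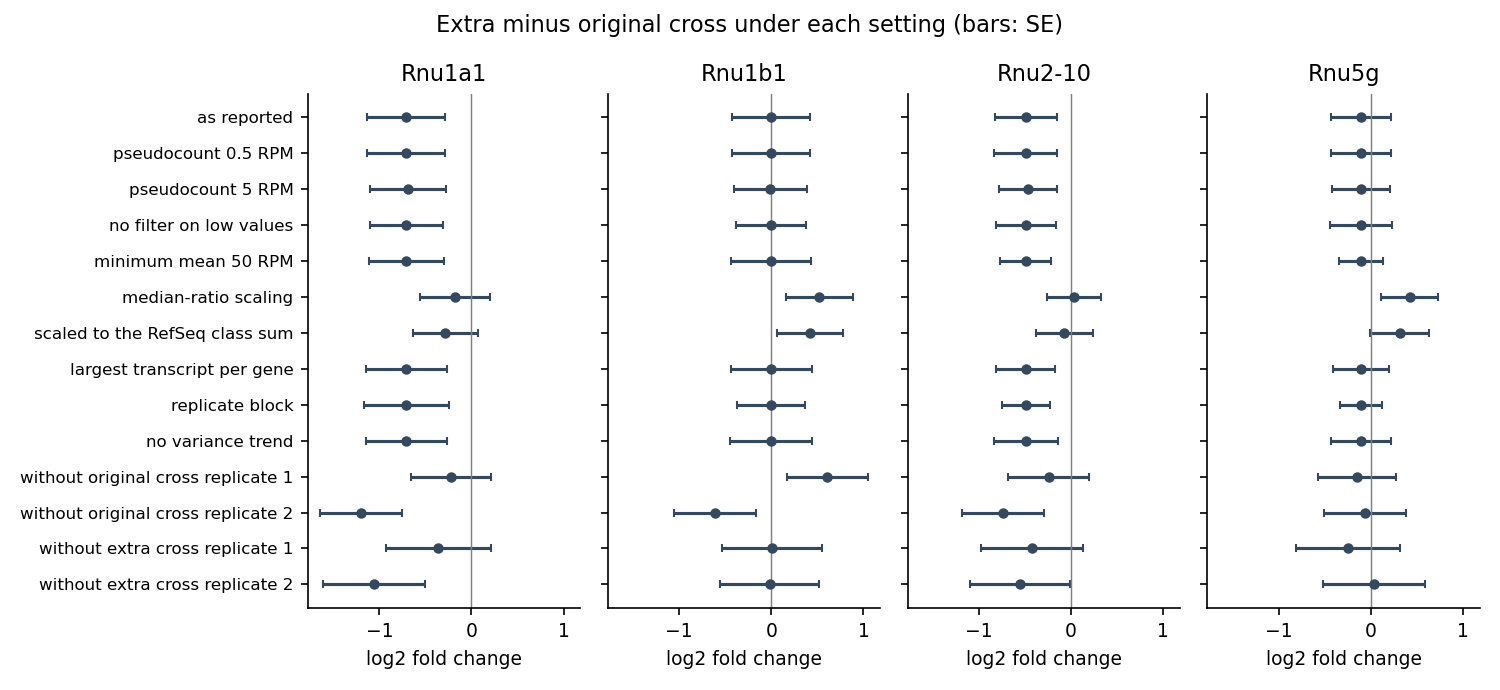
Log2 fold change with SE (x axis) of each gene (panels) as reported and under each alternative setting (y axis), except the one without rescaling. Rnu1a1 stays below 0 in all of those drawn but shrinks from -0.71 to -0.18 under median-ratio scaling, while Rnu1b1 and Rnu5g move above 0 under median-ratio scaling and when scaled to the RefSeq sum.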

How the data were processed

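Small RNA of 4 sperm libraries was compared, 2 mice per cross, each mouse processed separately per the labels' protocols. The authors deposited RPM values in 2 tables, 1 per replicate number, per the file headers; CASAVA 1.8.2, Bowtie 1.1.2 and mm10 are named in the submitters' processing notes, and the sources used here do not give the trimming, the annotation or the handling of reads with several matches. A feature listed in 1 table only was given 0 in the other. The value of 1 read was taken as the commonest miRNA value of a column. For RefSeq it was the common value most often seen together with its simple fractions, which gave 0.0603 RPM in original-cross replicate 1 against 1.58 RPM for miRNA, and that column was multiplied by the ratio. Read numbers are RPM over the value of 1 read. Those of the U1 genes are not whole, as reads divided among features would give. For Rnu2-10 some are whole, such as 145 and 102 reads in original-cross replicate 2 and extra-cross replicate 1. So are some of Rnu5g, such as 113 and 293 reads in original-cross and extra-cross replicate 1. Of 68434 RefSeq transcripts 55925 (81.7%) matched a symbol by accession (RefSeq gene table, GRCm38.p6) and were summed per gene. Genes averaging at least 10 RPM were fitted on log2(RPM + 1), which understates changes of low genes, with limma 3.58.1 (R 4.3.3), a variance trend and cross type alone as a term, and Benjamini-Hochberg adjustment over 477 genes. The fit was tested only on data simulated under its own model, without the rescaling or the differences in depth. Python 3.11.15, pandas 2.3.3, numpy 2.4.6, Biopython 1.88 and matplotlib 3.10.9 were used. The text names the 4 members, other spliceosomal RNAs and listed proteins with a mean of at least 10 RPM, and the 3 genes most like the members. Rnu7 and the markers Prm1, Prm2, Tnp1, Tnp2, Odf1, Hspa1l, Gapdhs, Acta2, Myh11, Tagln, Des, Lcn8, Rnase9, Spint4, Cst11 and Cst8 were below that minimum. The gene Gm26232 and the markers Lcn5, Lcn9, Defb20, Crisp1, Adam7 and Lyz2 were above it. All of these were added after their values were seen. The sequence of 1 member is not reported here. The members and lists were chosen with earlier results of these data known. Alternatives were 2 pseudocounts, 2 filters, 3 scalings, the largest transcript per gene, a replicate block, no variance trend and leaving out each library.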

Additional observations from a re-analysis of the deposited data

How the results depend on the processing

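No member passed limma under any of the 14 alternatives. The signs were less stable. Rnu1a1 was negative in all but the values left without rescaling, where the members stood at 1.59 (Rnu1a1), 2.20 (Rnu1b1), 1.72 (Rnu2-10) and 2.15 (Rnu5g), which carry the scale difference of original-cross replicate 1. Under median-ratio scaling, which moved the median of all genes from -0.50 to 0.01, Rnu1a1 was at -0.18, and Rnu1b1, Rnu2-10 and Rnu5g were at 0.52, 0.033 and 0.42. Scaled to the RefSeq sum (median of all genes -0.09), Rnu1a1 was at -0.29, and Rnu1b1 and Rnu5g were at 0.42 and 0.31. With each library left out in turn Rnu1a1 ranged from -1.20 to -0.22, Rnu1b1 from -0.61 to 0.61, Rnu2-10 from -0.74 to -0.24 and Rnu5g from -0.25 to 0.032. The lone library of a cross is then assumed to vary like the others.

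The count of all RefSeq genes past the threshold was 0 in 9 of the alternatives, 6 of 69 genes with a minimum of 50 RPM, and from 1 to 42 with a library left out: 12 without original-cross replicate 1, 42 without original-cross replicate 2, 2 without extra-cross replicate 1 and 1 without extra-cross replicate 2. None was a member. With a replicate block 0 genes passed and 131 had an unadjusted p below 0.05. In this balanced design the block cannot change a fold change, and it moved the limma adjusted p of Rnu2-10 (log2 fold change -0.49) to 0.255. The replicate numbers are not known to pair the mice. Deviations of same-numbered libraries correlated at 0.33 across genes, which cannot settle pairing with 2 mice per cross. Depth is lowest in original-cross replicate 1, where Rnu1b1 and Rnu2-10 rest on about 67.1 and 73.0 reads.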
